A study of Mus musculus with 72 samples.

Results

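A set of 8 genes of cholesterol synthesis and its feedback control were followed through mouse embryonic stem cells (mESCs): Hmgcs1, Idi1, Fdft1, Sqle, Lss, Dhcr7, Insig1 and Srebf2. They were taken by symbol, which gave 8 of the 51826 genes in the count files. Cholesterol is made from acetyl-CoA through the mevalonate pathway. Soluble enzymes and enzymes of the endoplasmic reticulum (ER) membrane work in succession along it. When sterols are scarce, the transcription factor precursor SREBP-2 (encoded by Srebf2) leaves the ER, is cleaved in the Golgi, and its released part switches on most genes of the pathway; INSIG proteins hold it back in the ER when sterols are plentiful. mRNAs of proteins with a signal sequence or a membrane-spanning segment are generally translated at the ER surface, so that their place in the cell can be read from fractionated RNA.

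The cells were the E14TG2a line, grown with 2 kinase inhibitors (2i) and leukemia inhibitory factor, which hold mESCs in a naive state. The medium held serum. All libraries used here come from cells that received 4-thiouridine (4sU), and no unlabeled control is among them. This uridine analog enters newly made RNA and, after alkylation, is read as a T-to-C (T2C) conversion. Per the labels the replicates were passaged independently, and the extraction buffers held cycloheximide, which arrests ribosomes on mRNA. Labeling lasted 15, 20 and 30 min in replicates 1 and 2, 20, 40, 60 and 120 min in replicates 3 and 4, and 60 and 120 min in replicates 5 and 6. Each culture was sampled as nucleus, cytosol, membrane (ER and mitochondria) and whole cells, which gave 72 polyadenylated RNA libraries, 18 per fraction. The labels give 500 µM 4sU up to 40 min and 100 µM at 60 and 120 min. The methods of the study imply 500 µM in replicates 3 and 4 at all times, and the conversion rate at 60 min was 5.83 to 8.29% there and 2.38 to 3.99% in replicates 5 and 6. Dose and replicate pair cannot be told apart, and doses were not compared. The 8 libraries of 120 min from replicates 3 and 4 were left out unless named, which left 64 libraries, 16 per fraction.

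The libraries held 13185351 to 52975732 reads on genes (median 21494524.5), and a member had between 88 and 32271 reads in a library. All 6 stem cell markers were high in every fraction, with mean levels of 264.6 to 1258 TPM (reads per exon length, scaled to the same total in each library) in whole cells, while the 10 markers of fibroblasts, endoderm, mesoderm and neural cells had whole-cell means of 0.0249 to 5.34 TPM, none of them at 0. The 3 mitochondrial markers summed to 163000 TPM in membrane, 16330 TPM in nucleus and 1951 TPM in cytosol. The 4 markers of ER-bound mRNA summed to 4367, 1535 and 221.6 TPM, so that the nuclear libraries carried more of both than the cytosolic ones. Among the whole-cell libraries, the one labelled 60 min of replicate 6 had a median share of new mRNA over genes of 0.391, and the one labelled 120 min of replicate 6 had 0.181. In replicate 5 the order was 0.223 at 60 min and 0.408 at 120 min. All 8 members followed the same reversed order in replicate 6, for example Sqle with 0.461 at 60 min and 0.141 at 120 min. The fractions of replicate 6 did not show it, and whole-cell shares are therefore given with these libraries named.

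There are 6 members that encode proteins of the ER membrane. Sqle oxidizes squalene to its epoxide, the first step that needs oxygen, and Dhcr7 catalyzes the last reduction to cholesterol. Srebf2 and Insig1 encode the sensor machinery, both with membrane-spanning helices. Fdft1 (squalene synthase) joins farnesyl units to squalene and is held by an anchor at its C-terminal end. Lss (lanosterol synthase) closes the sterol rings and dips into the membrane from one side without a spanning helix. The soluble members are Hmgcs1, which makes HMG-CoA in the cytosol, and Idi1, which isomerizes isopentenyl diphosphate. On GRCm38 (GENCODE M21), the protein-coding gene Sqle (ENSMUSG00000022351) lies on the plus strand at chr15:59315077-59331192, and Insig1 (ENSMUSG00000045294) on the plus strand at chr5:28071363-28078662. Dhcr7 (ENSMUSG00000058454) spans chr7:143823145-143848410, plus strand. Srebf2 (ENSMUSG00000022463) spans chr15:82147181-82205379, plus strand, and carries the microRNA gene Mir33 and, over 2110 bases, the unclassified gene Gm49502 on the same strand. Fdft1 (ENSMUSG00000021273) is at chr14:63145150-63179578 on the minus strand, where 774 bases overlap Ctsb on the opposite strand. Antisense genes also overlap Lss (4930483K19Rik, 11268 bases) and Hmgcs1 (Gm48342, 6190 bases), and the unclassified Gm48574 overlaps Idi1 by 323 bases on the opposite strand. Lss (ENSMUSG00000033105), Hmgcs1 (ENSMUSG00000093930) and Idi1 (ENSMUSG00000058258) are at chr10:76531588-76557138, chr13:119690379-119708260 and chr13:8885501-8892451, all on the plus strand.

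Promoter windows that hold motifs of the pathway's known regulators are shown as background. The part of these motifs in the levels of the members was not tested. RefSeq promoter sequences (250 bases before the start, GRCm38.p6) matched 6 of the 8 members, in 8 windows. The motifs were picked after the sequences had been seen and were searched on both strands. TCACCCCA, part of the sterol regulatory element bound by SREBPs, was in 2 of the 6 members (Hmgcs1 and Srebf2, 2 of the 8 windows) and in 1.34% of 32851 promoters. The longer form TCACNCCAC, which overlaps it, was in Hmgcs1 (1 of the 8 windows) and in 1.05% of promoters. CCAAT, the motif of the factor NF-Y, was in all 6 members with a sequence (6 of the 8 windows) and in 33.8% of promoters. GGGCGG, the GC box bound by SP1, was also in all 6 (7 of the 8 windows) and in 32.7% of promoters, and is not marked. Capitals mark the first 3 motifs (ATTGG is CCAAT on the other strand), and the windows are chr13:119690167-119690230 (Hmgcs1), chr15:82147099-82147146 (Srebf2), chr13:8885553-8885604 (Idi1), chr5:28071188-28071208 (Insig1) and chr7:143830121-143830177 (the third of the 3 Dhcr7 starts), all on the plus strand.
Hmgcs1: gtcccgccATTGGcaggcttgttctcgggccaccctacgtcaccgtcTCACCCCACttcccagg
Srebf2: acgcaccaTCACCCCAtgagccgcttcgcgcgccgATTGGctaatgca
Idi1: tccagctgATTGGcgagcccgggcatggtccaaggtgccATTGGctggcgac
Insig1: ctcctcccATTGGctccggcg
Dhcr7: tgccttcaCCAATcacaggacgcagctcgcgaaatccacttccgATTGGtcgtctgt
In Srebf2 and Hmgcs1 both kinds of motif lay within 1 short window.

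The first comparison asked where the steady-state mRNA of each member was found. Membrane enrichment, the ratio of TPM in membrane to TPM in cytosol, ordered the members from Dhcr7 (13.01 ± 3.47, SD, n = 6 replicates) over Sqle (10.3 ± 0.99), Srebf2 (5.64 ± 1.27) and Insig1 (2.98 ± 0.76) to Fdft1 (1.42 ± 0.13), Lss (0.762 ± 0.22), Hmgcs1 (0.474 ± 0.074) and Idi1 (0.400 ± 0.056). With the cutoffs of the study (3 or more membrane-localized, 1.5 or less cytosol-localized), Dhcr7, Sqle and Srebf2 were membrane-localized, Insig1 was undefined, and Fdft1, Lss, Hmgcs1 and Idi1 were cytosol-localized. The 6 ER membrane proteins thus did not form 1 group. Fdft1, with its C-terminal anchor, and Lss, with no spanning helix, lay between the other 4 and the soluble pair.

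**Figure D1:**
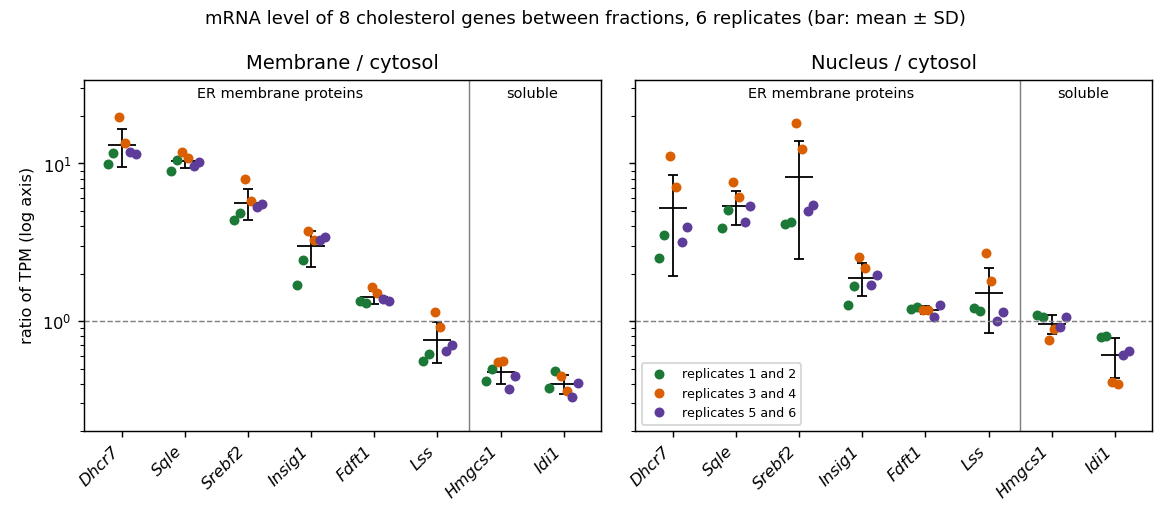
Ratio of TPM in membrane over cytosol (left) and nucleus over cytosol (right) on a log axis for the 8 members, with 1 point per replicate coloured by replicate pair and bars for mean ± SD; the dashed line is a ratio of 1. Dhcr7, Sqle and Srebf2 lay above 4 in every replicate for membrane over cytosol, and Hmgcs1 and Idi1 lay below 0.6 in every replicate.

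Dhcr7 had 2.07 to 15.4 TPM over the 16 cytosolic libraries (median 11.4) and 40.6 to 156.5 TPM over the 16 membrane libraries (median 129.4). Sqle had 11.1 to 32.2 TPM in cytosol (median 23.7) and 160.7 to 299.4 TPM in membrane (median 234.0). Srebf2 had 13.5 to 59.0 TPM in cytosol (median 34.1) and 101.5 to 274.7 TPM in membrane (median 176.9). For these 3 members every membrane library lay above every cytosolic library. Insig1 had 33.6 to 145.8 TPM in cytosol (median 74.6) and 130.6 to 291.5 TPM in membrane (median 229.0), and the groups overlapped. Within replicate pairs its enrichment was 2.07 in replicates 1 and 2, 3.52 in 3 and 4, and 3.35 in 5 and 6, so that its class changed with the pair. Fdft1 had 67.5 to 95.2 TPM in cytosol and 88.3 to 146.8 TPM in membrane, with overlap. Hmgcs1, the most abundant member in cytosol, had 156.4 to 294.4 TPM there and 64.4 to 167.8 TPM in membrane, with a narrow overlap. Idi1 had 31.7 to 63.0 TPM in cytosol and 9.06 to 30.0 TPM in membrane, with no overlap. In whole cells at 20 min, Idi1 had 77048 to 89536 exon T (the T bases counted for T2C) on 720 to 878 reads. Sqle had 218760 to 340910 exon T there on 6057 to 9337 reads, so that Idi1 had more T per counted read. Levels and shares of Idi1 may thus rest on different reads, which was not tested. Lss had 11.3 to 34.5 TPM in cytosol and 13.4 to 25.1 TPM in membrane, with full overlap.

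In the fit over all genes (edgeR quasi-likelihood test on counts summed per replicate; genes were called where the fold change exceeded 1 on the log2 scale in either direction with an adjusted p below 0.05), 4 of the 8 members were called higher in membrane than in cytosol, against 19.3% of the 19040 genes tested. Dhcr7 was higher by 4.09 on the log2 scale (SE 0.47, adjusted p = 6.10e-08). Sqle was higher by 3.83 (SE 0.26, adjusted p = 3.53e-12), Srebf2 by 2.92 (SE 0.29, adjusted p = 4.47e-09) and Insig1 by 1.95 (SE 0.31, adjusted p = 9.01e-06). Fdft1 had a log2 fold change of 0.91 (SE 0.14, adjusted p = 4.40e-06), which missed the fold cutoff. No member was called lower, against 0.625% of genes. The values were -0.71 for Hmgcs1 (SE 0.22, adjusted p = 0.0117), -0.93 for Idi1 (SE 0.19, adjusted p = 0.000282) and -0.04 for Lss (SE 0.20, adjusted p = 0.893). The median of all genes was -0.14 in this fit and -0.45 when libraries were scaled by their total alone. On that scale Idi1 passed the cutoff with -1.20, as it did without replicate 2 (-1.006) and without replicate 5 (-1.01), and no member changed direction.

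The other genes of the pathway (a list of 20, split into membrane and soluble proteins) were described beside them. All 13 genes of membrane proteins, most of them of the ER, with Mbtps1 and Mbtps2 encoding the proteases that cleave SREBPs in the Golgi, were called higher in membrane (median log2 fold change 3.03), and none of the 7 genes of soluble proteins was called in either direction (median -0.22). The highest were Ebp, the sterol isomerase, at 4.42 (SE 0.24, adjusted p = 7.89e-14), and Cyp51, the lanosterol demethylase, at 4.37 (SE 0.39, adjusted p = 6.17e-10). The lowest were Stard4, a soluble sterol carrier, at -0.62 (adjusted p = 0.00189), the decarboxylase Mvd at -0.40 (adjusted p = 0.244) and the thiolase Acat2 at -0.38 (adjusted p = 0.159). Sqle, Dhcr7, Srebf2 and Insig1 lay in the range of the 13, from 1.84 to 4.42, and Fdft1 and Lss lay below all of them. Fdps, 1 of the 7 soluble genes, averaged 1.69 TPM in cytosol and Acat2 150.2 TPM. Their lowest exon T counts there at 60 min in replicates 3 and 4 were close, 142000 and 138300. The level of Fdps may thus rest on part of its reads, which was not tested.

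Nuclear levels were compared with cytosolic levels in the same fit. Srebf2, Sqle and Dhcr7 were called higher in the nucleus, which 24.3% of genes were, and Idi1 was called lower, which 14.7% of genes were (7.61% without replicate 1, 7.60% without replicate 2 and 7.26% with libraries not summed). Srebf2, with 132.5 to 307.8 TPM in the nucleus, averaged 226.8 ± 44.2 TPM there (SD, n = 6) and 186.0 ± 54.7 TPM in membrane, spreads that overlap. The higher nuclear mean came from replicates 3 and 4 (274.5 and 278.1 TPM in the nucleus, 121.5 and 130.7 TPM in membrane), and in the other 4 replicates membrane was the higher. Its nuclear log2 fold change against cytosol was 2.18 (SE 0.28, adjusted p = 5.31e-07). Its nuclear ratio differed by replicate pair, with 4.20 in replicates 1 and 2, 15.2 in 3 and 4, and 5.24 in 5 and 6. Sqle followed with 1.89 (SE 0.24, adjusted p = 4.10e-07) and Dhcr7 with 1.53 (SE 0.43, adjusted p = 0.00330). Idi1 was lower by -1.32 (SE 0.19, adjusted p = 2.34e-06), a call that was lost under 3 alternatives, with values of -0.93 (library totals alone), -0.95 (no filter on low counts) and -0.996 (libraries not summed). Hmgcs1 (-0.59), Fdft1 (-0.27), Lss (-0.07) and Insig1 (0.35) were not called. The sign of Fdft1 turned when libraries were scaled by their total alone (0.09), as did that of Lss (0.25, and 0.10 with RLE size factors, another scaling). The nuclear libraries also held more ER-bound and mitochondrial marker RNA than the cytosolic ones, as given above, and its part in these values was not tested.

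Of the wider list, 9 of the 13 membrane protein genes were called higher in the nucleus and 1 of the 7 soluble genes was called lower. Srebf1, which encodes the sister factor SREBP-1, had the highest value (3.08, SE 0.42, adjusted p = 1.17e-06), followed by Cyp51 (2.14, SE 0.36, adjusted p = 1.53e-05) and Scap (2.12, SE 0.24, adjusted p = 7.69e-08), the escort protein of SREBPs. The lowest were Acat2 (-1.09, SE 0.21, adjusted p = 8.73e-05), Mvd (-0.84, adjusted p = 0.00788) and Stard4 (-0.72, adjusted p = 0.000220), of which Acat2 passed the fold cutoff.

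The second set of measurements was the share of new to total mRNA, the T2C conversions per T counted in exons divided by the conversion rate of the library. This rate differed between fractions of 1 replicate, and a lower rate gives a higher share for the same conversions. In replicates 3 to 6 at 60 min it was 5.83, 7.57, 2.38 and 2.58% in cytosol. It was 6.97, 8.09, 2.64 and 2.82% in membrane and 7.66, 8.29, 3.25 and 3.53% in the nucleus. Its part in the differences between fractions was not tested. At 60 min of labeling (replicates 3 to 6), the share of the membrane-localized members was higher in cytosol than in membrane. Sqle had cytosolic shares of 0.231, 0.218, 0.391 and 0.383 and membrane shares of 0.123, 0.101, 0.163 and 0.144, in replicate order. Srebf2 had 0.126, 0.0941, 0.230 and 0.199 in cytosol and 0.0414, 0.0459, 0.0621 and 0.0524 in membrane. Neither member's groups overlapped. Dhcr7 had 0.278, 0.0945, 0.460 and 0.555 in cytosol and 0.0723, 0.0854, 0.0989 and 0.0841 in membrane, where the groups overlapped through replicate 4. The cytosolic Dhcr7 values rested on 35 to 285 conversions per library, fewer than the 442 to 722 in membrane. Insig1 had 0.195, 0.152, 0.442 and 0.373 in cytosol and 0.135, 0.116, 0.196 and 0.166 in membrane, higher in cytosol in 4 of 4 replicates with overlap between groups. Fdft1, Lss, Hmgcs1 and Idi1 had mean cytosolic shares of 0.167, 0.115, 0.160 and 0.155 and mean membrane shares of 0.135, 0.107, 0.146 and 0.146, which differed by less than the spread between replicates.

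**Figure D2:**
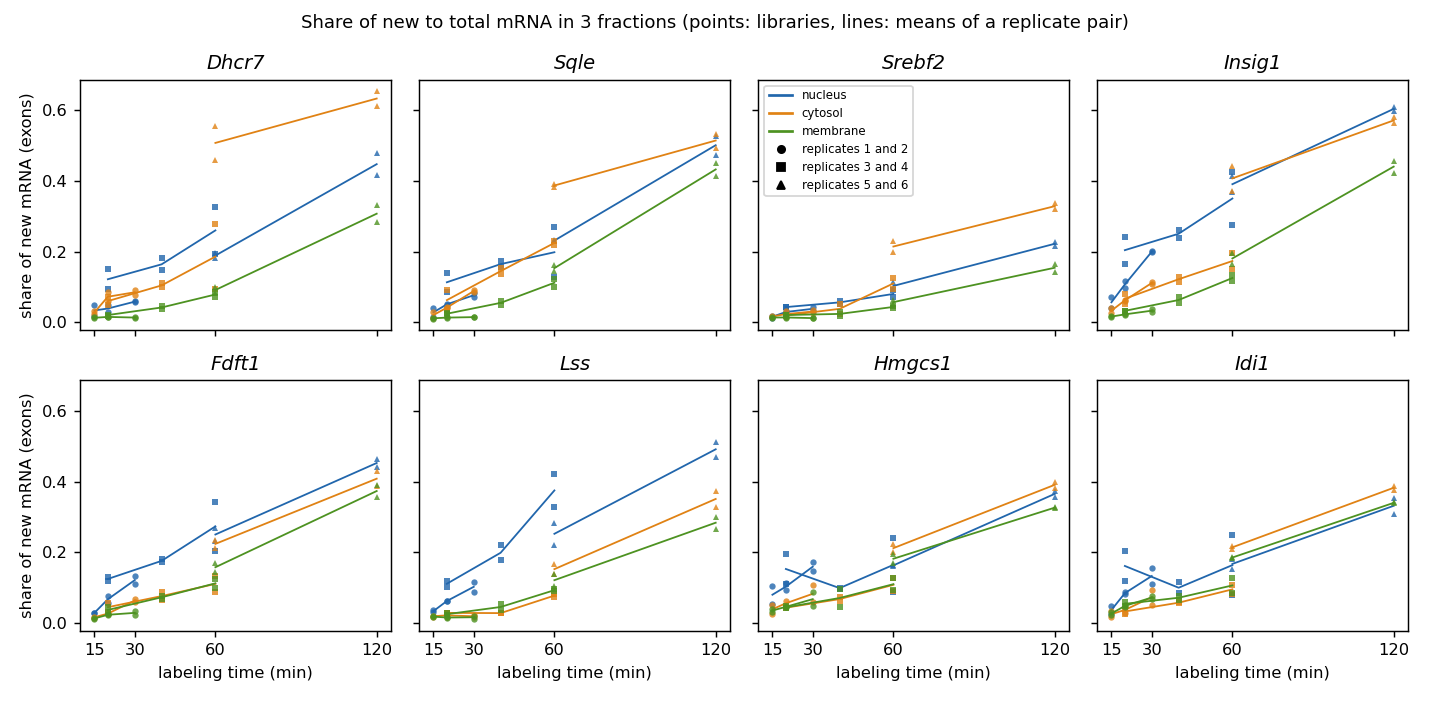
Share of new to total mRNA in exons (vertical axis) against labeling time in min (horizontal axis) for each member; each point is 1 of the 16 libraries of a fraction, colours mark the fraction, marker shapes the replicate pair, and lines join means of a pair. In Dhcr7, Sqle and Srebf2 the cytosolic line lies above the membrane line at 60 min in both pairs, and in Hmgcs1 and Idi1 the cytosolic and membrane lines lie close together.

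In the limma fit on log2(share + 0.01) over all genes, 3 of the 8 members had a lower share in membrane than in cytosol at an adjusted p under 0.05, against 6.97% of the 12230 genes tested; 0.425% were higher and no member was. The differences, on this log2 scale, were -1.66 for Dhcr7 (SE 0.42, adjusted p = 0.0158), -1.45 for Srebf2 (SE 0.31, adjusted p = 0.00510) and -1.12 for Sqle (SE 0.30, adjusted p = 0.0254). Insig1 had -0.78 (SE 0.27, adjusted p = 0.108). The other 4 lay between -0.22 and -0.03. The fit held all 16 libraries of 60 min, among them the whole-cell library of replicate 6 named above. Without the whole-cell libraries, 1010 genes were called in place of 904. All 3 calls were lost without replicate 5, whose removal lowered the calls over all genes from 904 to 314; The differences were then -1.51 for Dhcr7 (adjusted p = 0.145), -1.08 for Sqle (0.231) and -1.35 for Srebf2 (0.135), near those with all replicates. Dhcr7 also missed without replicate 3 (adjusted p = 0.0652) or 6 (0.108), and Sqle without replicate 4 (0.118) or 6 (0.0522). The pattern was shared by other membrane mRNAs, since 41.1% of the 1967 tested genes with higher levels in membrane had a lower share there, and 0.331% of the 9956 other genes did. In the wider list, 7 of the 13 membrane protein genes and 0 of the 7 soluble genes had a lower share in membrane. The lowest values were those of the desaturase Sc5d (-1.59, SE 0.31, adjusted p = 0.00245), Srebf1 (-1.55, SE 0.24, adjusted p = 0.000542) and the reductase Tm7sf2 (-1.51, SE 0.48, adjusted p = 0.0672). The highest were those of Mvd, Ggps1 and Stard4, which lay between 0.00 and 0.06.

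At 20 min the same order was already seen in Dhcr7, whose cytosolic shares of 0.0598, 0.0852, 0.0490 and 0.0714 (replicates 1 to 4) all lay above its membrane shares of 0.0146, 0.0163, 0.0194 and 0.0220. The cytosolic values came from 6 to 41 conversions, and the membrane values from 77 to 100 among 120530 to 245230 T. Median shares over genes in these membrane libraries were 0.0174, 0.0189, 0.0264 and 0.0282. No background was subtracted, and the part of sequencing error in shares this low was not tested. Sqle, Insig1, Fdft1 and Lss were also higher in cytosol in 4 of 4 replicates, and Srebf2 and Hmgcs1 in 2 of 4. Idi1 showed the opposite order, with a higher share in membrane in 4 of 4 replicates (0.0514, 0.0455, 0.0606 and 0.0482 against 0.0462, 0.0280, 0.0387 and 0.0267), and it was the only member to do so. These orders at 20 min were not tested.

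Nuclear shares at 60 min were called higher than cytosolic shares in 40.5% of all genes tested and lower in 2.76% (adjusted p under 0.05). Lss was the only member called higher, with 0.421, 0.329, 0.283 and 0.221 in the nucleus and 0.0817, 0.0735, 0.168 and 0.137 in cytosol, groups that did not overlap (difference 1.41, SE 0.33, adjusted p = 0.00369). The call was lost without replicate 3 (adjusted p = 0.0529) and without replicate 4 (adjusted p = 0.0570). No member was called lower. Fdft1 had 0.68 (SE 0.29, adjusted p = 0.0675), and passed with a higher minimum of T per library (adjusted p = 0.0476) or without replicate 6 (0.0311). Insig1 had 0.45 (adjusted p = 0.183), Idi1 0.10 and Hmgcs1 0.04 (no call). Dhcr7 had -0.39 (adjusted p = 0.447), Sqle -0.49 (adjusted p = 0.187) and Srebf2 -0.70 (SE 0.31, adjusted p = 0.0716), against a median of 0.69 over all genes. Low values were shared by other membrane mRNAs. The 1967 tested genes with higher levels in membrane had a median of 0.03, with 9.86% called higher and 9.61% lower. The 9956 other genes had a median of 0.79, with 46.8% called higher and 1.43% lower. Srebf2 passed in a fit without the whole-cell libraries (adjusted p = 0.0305), and its share was lower in the nucleus than in cytosol in 4 of 4 replicates. Among the wider list, Mvd (1.15, SE 0.34, adjusted p = 0.0117) was highest, ahead of Tm7sf2 (1.13, adjusted p = 0.0630) and the mevalonate kinase Mvk (1.05, adjusted p = 0.0545). Srebf1 (-0.66, SE 0.24, adjusted p = 0.0373), Sc5d (-0.73, adjusted p = 0.0614) and Cyp51 (-0.64, adjusted p = 0.0968) were lowest.

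Among the members, Insig1 had the highest nuclear share at 60 min, 0.371 ± 0.067 (SD, n = 4), higher than that of 73.6% of genes on average. Lss (0.314 ± 0.084), Fdft1 (0.262 ± 0.061), Dhcr7 (0.225 ± 0.069) and Sqle (0.215 ± 0.061) followed, neighbours that differed by less than their spread. Idi1 and Hmgcs1 had 0.166 ± 0.070 and 0.164 ± 0.062. Srebf2 was lowest with 0.0917 ± 0.017, above 11.1% of genes. Srebf2 was also lowest in membrane (0.0505 ± 0.0090), where Dhcr7 (0.0852 ± 0.011) came next and did not overlap it. At 120 min in replicates 5 and 6, nuclear shares were 0.604 for Insig1, 0.501 for Sqle, 0.491 for Lss, 0.453 for Fdft1, 0.447 for Dhcr7, 0.365 for Hmgcs1, 0.332 for Idi1 and 0.222 for Srebf2 (means of 2 libraries).

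Nuclear shares of the soluble pair did not increase steadily with labeling time. In replicates 3 and 4, Hmgcs1 had 0.195 and 0.111 at 20 min, 0.0976 and 0.100 at 40 min, and 0.241 and 0.0885 at 60 min. Idi1 had 0.205 and 0.118 at 20 min, 0.0843 and 0.116 at 40 min, and 0.248 and 0.0797 at 60 min. Both genes were thus no higher at 40 min than at 20 min in either replicate, whereas the median nuclear share over genes went from 0.115 and 0.0933 to 0.157 and 0.153. In replicates 1 and 2 Hmgcs1 went from 0.105 and 0.0547 at 15 min to 0.172 and 0.147 at 30 min, and Idi1 from 0.0490 and 0.0250 to 0.155 and 0.111.

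Introns, which are removed soon after synthesis, were compared with exons in the nucleus at 20 min. All 8 members had a higher share in introns, as did 89.8% of the 11282 genes tested (0.275% were lower), so that the direction is not particular to them, and the size differed among them. Srebf2 had the largest difference, 3.16 on the log2 scale (SE 0.20, adjusted p = 2.95e-06), with intron shares of 0.380, 0.332, 0.527 and 0.384 over exon shares of 0.0271, 0.0315, 0.0437 and 0.0426 in replicates 1 to 4. Sqle had 2.99 (SE 0.22), with intron shares of 0.514, 0.638, 0.770 and 0.808. Idi1 (2.65), Hmgcs1 (2.34) and Fdft1 (2.01) followed, and Dhcr7 (1.51, SE 0.32), Lss (1.35, SE 0.21) and Insig1 (1.24, SE 0.20) were lowest, all below the median of 1.98 over genes. By mean intron share at 20 min, Idi1 (0.782), Sqle (0.683) and Hmgcs1 (0.671) stood above Fdft1 (0.413), Srebf2 (0.406), Insig1 (0.370), Lss (0.239) and Dhcr7 (0.220). At 60 min the mean intron share was 0.663 ± 0.11 (SD, n = 4) in Srebf2 and 0.783 ± 0.11 in Dhcr7, and 0.907 to 1.19 in the other 6; the division by the conversion rate allows values above 1.

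**Figure D3:**
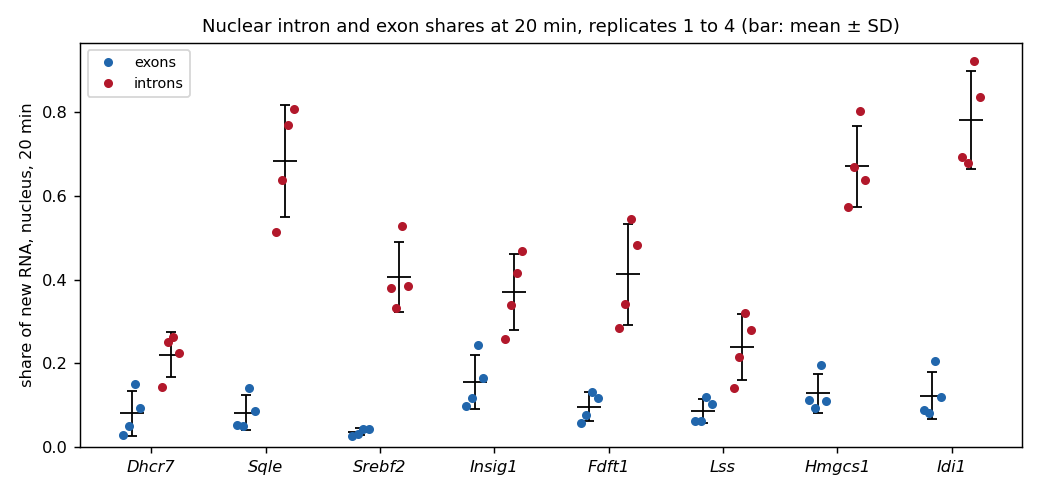
Share of new RNA in exons and introns (vertical axis) in the nucleus at 20 min for each member, with 1 point per library of replicates 1 to 4 and bars for mean ± SD. Within each library introns lie above exons in every member. They lie farthest apart in Idi1, Sqle and Hmgcs1 and closest in Dhcr7, where the 2 sets of points overlap, and in Lss.

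Intron counts also differed in where they were found. Of the T counted in Srebf2, the percentage on introns was 8.55 to 18.2 in the nucleus (median 13.2) and 24.9 to 46.9 in cytosol (median 31.1), and the cytosolic percentage exceeded that of 85.1% of genes. The cytosolic introns of Srebf2 had a low share of new RNA, 0.213 ± 0.088 at 60 min (SD, n = 4), against 0.663 in the nucleus. The part of Gm49502, which shares bases with Srebf2 on the same strand, in these counts was not tested. Dhcr7 had 10.1 to 38.6% on introns in the nucleus (median 22.4) and 15.8 to 31.7% in cytosol (median 24.9), and its cytosolic intron share at 60 min was 0.954 ± 0.25. In the other 6 members the median percentage was lower in cytosol than in the nucleus, from 1.46 against 9.34 in Idi1 to 14.0 against 40.9 in Fdft1.

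Within the exons, the end of the transcript carried more new RNA in the nucleus in most members. At 20 min in the nucleus, the last exon had a higher share than the other exons together in 4 of 4 libraries for Sqle, Insig1, Fdft1, Srebf2, Lss and Hmgcs1, in 3 of 4 for Idi1 and in 2 of 4 for Dhcr7. Lss, with 22 exons, showed the widest gap, 0.130 ± 0.051 in the last exon (SD, n = 4) against 0.0243 ± 0.0045 in the others. Srebf2, with 18 of its 19 exon rows found in the annotation, had 0.0582 ± 0.015 against 0.0160 ± 0.0045. In the short gene Insig1, the first 4 exons had means of 0.0880, 0.0850, 0.0625 and 0.0612, and the fifth, of 1872 bases, had 0.175. At 60 min the last exon was higher in 4 of 4 libraries for Lss (0.401 against 0.178), Insig1 (0.394 against 0.251), Fdft1 (0.308 against 0.222), Srebf2 (0.111 against 0.0687), Sqle (0.237 against 0.204) and Dhcr7 (0.253 against 0.2345), and in 2 of 4 for Idi1. Hmgcs1 changed its order, with the last exon lower in 4 of 4 libraries at 60 min (0.147 ± 0.056 against 0.1995 ± 0.074) and higher in 4 of 4 at 20 min (0.142 ± 0.043 against 0.0987 ± 0.057). It had the same order at 60 min in cytosol and membrane, where the last exon was lower in 4 of 4 libraries each. Hmgcs1 was not alone in this outside the nucleus. At 60 min the last exon of Idi1 was higher in 0 of 4 membrane libraries (0.136 against 0.186) and in 2 of 4 cytosolic ones. That of Dhcr7 was higher in 1 of 4 libraries in each of the 2 fractions. In Sqle, Insig1, Fdft1, Srebf2 and Lss it was higher in 3 or 4 of 4 in both. These are descriptions with no test and with no background subtracted.

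**Figure D4:**
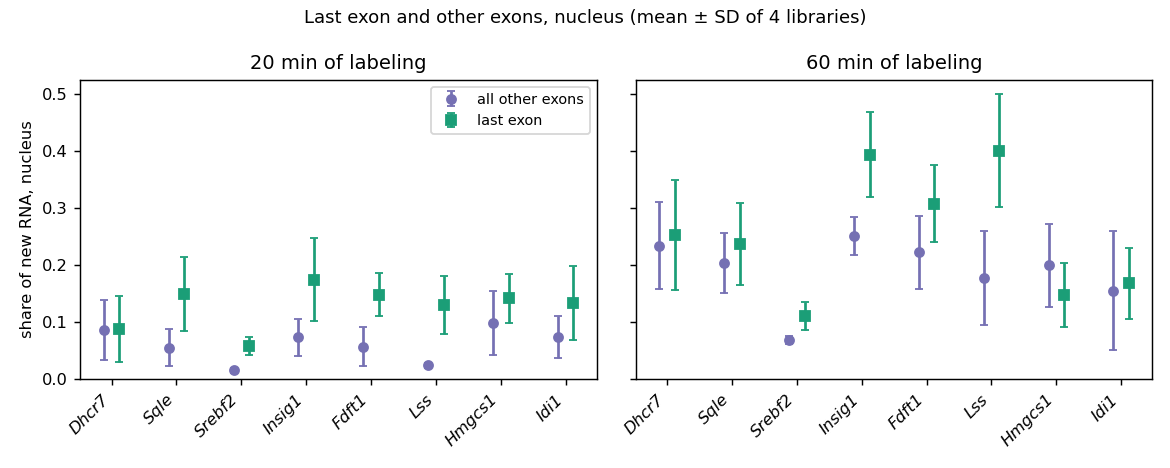
Share of new RNA (vertical axis) in the last exon (squares) and in all other exons together (circles) of each member in the nucleus at 20 min (left) and 60 min (right), as mean ± SD of 4 libraries. Lss, Insig1, Fdft1, Srebf2 and Sqle show the last exon above the others at both times, and Hmgcs1 shows it below them at 60 min.

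The third comparison was of whole-cell levels over labeling time, which asks whether the level of a member moved during 4sU exposure. No member was called between 20 and 60 min in replicates 3 and 4 (edgeR, 0% of 16858 genes called; 747 genes had an unadjusted p under 0.05, and DESeq2 called 0), with log2 fold changes from -0.15 in Idi1 to 0.15 in Fdft1. None was called between 60 and 120 min in replicates 5 and 6 (0% of genes; 123 with an unadjusted p under 0.05, and 0 by DESeq2). The values ran from -0.08 in Sqle to 0.37 in Idi1, and this comparison holds the replicate 6 libraries with the reversed order of shares. Replicate 5 at 60 min was low in TPM there, for example 11.9 TPM for Idi1 against 45.1 TPM in replicate 6, and 116.7 TPM for Hmgcs1 against 311.3 TPM. TPM lacks the scaling between libraries used in the fit. Fdft1 had 58.6 TPM at 60 min and 111.9 TPM at 120 min in replicate 5. With either replicate left out of the fit, its log2 fold changes were -0.10 and -0.07, and those of Idi1 were -0.02 and 0.87. Between 20 and 120 min in replicates 3 and 4, 0.113% of genes were called, and the members ranged from -0.14 in Sqle to 0.19 in Lss with none called.

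**Figure D5:**
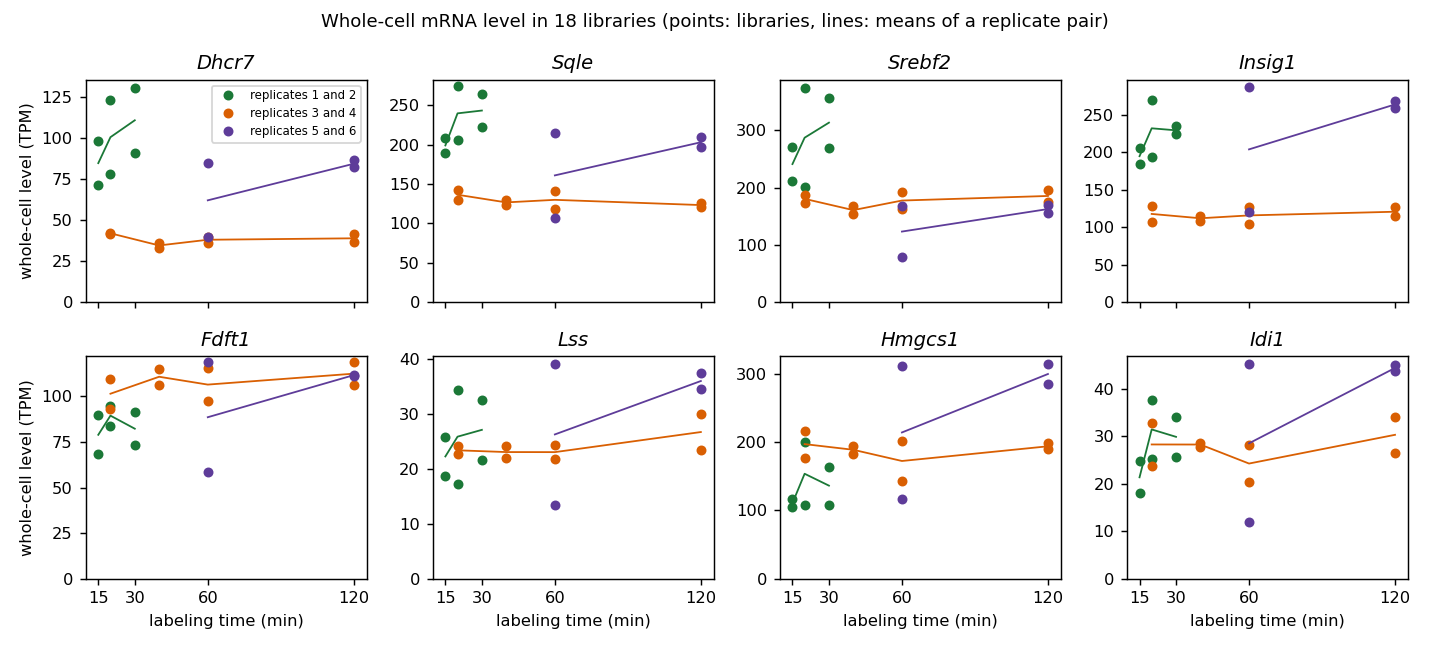
Whole-cell mRNA level in TPM (vertical axis, from 0) against labeling time in min for each member; points are the 18 whole-cell libraries coloured by replicate pair, and lines join means of a pair. Dhcr7, Sqle and Insig1 lie lower in replicates 3 and 4 than in replicates 1 and 2 at 20 min, and at 60 min replicate 5 lies below replicate 6 in every member.

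Larger differences lay between replicate pairs at the same time. At 20 min, under the same labelled dose, 4 members were called lower in replicates 3 and 4 than in replicates 1 and 2 (here the fold cutoff was 0.5 on the log2 scale, with the same adjusted p), against 11.9% of genes; 10.4% of genes were called higher and no member was. Dhcr7 had 78.0 and 122.8 TPM in replicates 1 and 2 and 42.3 and 41.4 TPM in replicates 3 and 4. Insig1 had 194.0 and 270.1 TPM, then 128.6 and 106.8 TPM. Sqle had 205.3 and 274.0 TPM, then 142.7 and 129.9 TPM. The groups did not overlap in these 3 members or in Srebf2 (200.6 and 373.6 TPM, then 187.2 and 173.5 TPM). The log2 differences were -1.26 for Dhcr7 (SE 0.14, adjusted p = 3.1e-05), -1.003 for Insig1 (SE 0.16, adjusted p = 0.000522), -0.84 for Sqle (SE 0.14, adjusted p = 0.000609) and -0.65 for Srebf2 (SE 0.14, adjusted p = 0.00429). Without replicate 3 the calls over all genes went from 3755 to 344, and Dhcr7 remained while Insig1 (-1.06, adjusted p = 0.0563), Sqle (-0.83, 0.0799) and Srebf2 (-0.62, 0.157) did not, with differences near those from all replicates. Srebf2 was also lost without replicate 2 (log2 difference -0.49) and without replicate 4 (adjusted p = 0.0861), where 1454 genes were called. Fdft1 (0.13), Idi1 (-0.17), Lss (-0.11) and Hmgcs1 (0.38, adjusted p = 0.0758) were not called.

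The 4 members that were lower are those called higher in membrane than in cytosol, and 39.3% of the 3416 tested genes with higher levels in membrane were called lower in this contrast, against 4.96% of the 13435 others. All 4 markers of ER-bound mRNA were lower too (Hspa5 by -1.03), 5 of the 6 stem cell markers were higher (Nanog by 1.02), and of the 7 markers of other cell types that passed the filter on counts, Pax6 was higher (2.25) and Thy1 lower (-1.88). Of the 3 cytosolic markers, Tubb5 (0.97) and Eef1a1 (0.68) were higher, and of the 3 mitochondrial ones mt-Co1 was lower (-0.97). The part of these in the differences was not tested. Fewer cells of a kind and less RNA per cell cannot be told apart in such bulk libraries. In the wider list 9 of the 13 membrane protein genes were lower, and of the 7 soluble genes Mvd was higher (0.78, SE 0.23, adjusted p = 0.0235). Within fractions, Dhcr7 averaged 144 TPM in membrane in replicates 1 and 2, 49.5 TPM in 3 and 4, and 138 TPM in 5 and 6, and the ranges of replicates 3 and 4 did not overlap either of the others. Fdft1, in contrast, averaged 93.3, 133.9 and 108.1 TPM in membrane. Nuclear intron T of Insig1, as CPM (counts scaled to the same total in each library, here all intron T), were 168.8 to 214.8 in replicates 1 and 2, 75.7 to 120.2 in replicates 3 and 4, and 171.5 to 273.8 in replicates 5 and 6, while those of Srebf2 were 191 to 222, 194 to 359 and 261 to 339.

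Over the 16 whole-cell libraries, levels of Sqle followed those of Dhcr7 (Pearson r = 0.988 on log2(CPM + 1)) and Insig1 (0.935). Hmgcs1 and Srebf2 ran against each other (r = -0.604), as did Fdft1 and Srebf2 (r = -0.716). The gene most like a member among 13492 others was Cd99l2 for Dhcr7 (r = 0.992), Cyp51 for Insig1 (0.991), Phyh for Hmgcs1 (0.964), Vps35 for Idi1 (0.955), Armt1 for Lss (0.948) and H3f3a for Fdft1 (0.936). Of these 6, Cyp51 is itself an enzyme of the pathway. The points share libraries and replicate pairs, and the values are given as descriptions.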

How the data were processed

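Poly(A) RNA libraries (stranded) of 4sU-labeled mESC fractions were sequenced by the authors, who aligned reads with STAR 2.7.6 to mm10 and counted them per gene with HTSeq 0.11.1. The deposited counts are unnormalized reads per gene. The deposited T2C tables hold counts of T and of T2C conversions on exons and introns, a conversion rate per library, which is a fraction the authors estimated with a binomial mixture model after excluding SNP positions, and the ratio of the 2 divided by that rate (the share), recomputed here from the counts to within rounding. No background was subtracted and no unlabeled library was used here. Reads on no gene (3.09 to 27.8% of the total per library) and reads not aligned uniquely (19.4 to 34.9%) stayed out of library sizes.

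TPM and CPM were computed from the counts with GENCODE M21 exon lengths, matched by identifier (99.6% of genes). Levels between fractions and in whole cells were tested with edgeR 4.0.16 (quasi-likelihood test, TMM, filterByExpr, R 4.3.3), shares with limma 3.58.1 on log2(share + 0.01) for genes with at least 400 T in every library of the fit, with replicate pair as covariate; p-values were adjusted over all genes tested (Benjamini-Hochberg). SEs of log2 fold changes in edgeR are the fold change divided by the root of F. DESeq2 1.42.0, other scalings, filters, pseudocounts and leaving out each replicate were alternatives. Scripts were checked on simulated counts and shares. Replicates were independently passaged per the labels. No 2 libraries of a group were identical, and all differed beyond counting noise (chi-square per gene 4.95 or more). Same-numbered samples deviated together between membrane and cytosol (r = 0.751 to 0.835 for levels, 0.11 to 0.143 for shares at 60 min) and not throughout between nucleus and cytosol (0.0241 to 0.553 and 0.082 to 0.124).

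Named genes were the 8 members, the 3 highest and 3 lowest of the wider list in each fraction contrast and each share contrast at 60 min, and the gene most like each member; other genes were named after their values were seen. Some genes that this rule names are not reported here. Members and lists were chosen with earlier results of these data known.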

Additional observations from a re-analysis of the deposited data

Results flagged for a closer look

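Of 112 groups of 4 to 6 replicates checked, 4 held a value apart from the rest, where chance alone flags about 1 in 20 groups. Idi1 had a whole-cell level of 45.03 TPM in replicate 6, against 24.2 to 29.9 TPM in the other 5. These are means over labeling times, and replicate 5 had 11.9 TPM at 60 min and 43.75 TPM at 120 min, the latter close to the 44.9 TPM of replicate 6. Replicate 4 had a cytosolic share at 20 min of 0.0919 in Sqle, against 0.0338 to 0.0434 in the other 3, and of 0.0580 in Fdft1, against 0.0267 to 0.0317. Replicate 3 had a nuclear share at 60 min of 0.327 in Dhcr7, against 0.182 to 0.196.

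In 6 ratios the replicate pairs lay on opposite sides of 1, which was not tested. The nuclear over cytosolic level of Hmgcs1 averaged 1.07 in replicates 1 and 2 (1.09 and 1.06) and was 0.760 and 0.889 in replicates 3 and 4. At 60 min, the nuclear over cytosolic share of Insig1 averaged 2.00 in replicates 3 and 4 (2.17 and 1.82) and was 0.934 and 0.990 in replicates 5 and 6, and that of Dhcr7 averaged 1.61 (1.18 and 2.05) and was 0.427 and 0.327. The membrane over cytosolic share at 60 min averaged 1.20 for Lss (then 0.825 and 0.758), 1.02 for Hmgcs1 (then 0.873 and 0.843) and 1.11 for Idi1 (then 0.891 and 0.841). Pair and dose as implied by the methods cannot be told apart here.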

How the results depend on the processing

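Over the alternatives run, 616 of the 640 member values kept their side of the threshold, 17 lost a call and 7 gained one. None of the called values reversed. Values without a call could change sign, as those of Fdft1 and Lss did in nucleus versus cytosol. Membrane versus cytosol (3797 genes called), nucleus versus cytosol (7434) and introns versus exons (10158) stayed within 1.5 times in every setting. With a replicate block these became 4141, 8412 and 10184, the share contrasts at 60 min went from 904 to 801 (membrane) and from 5290 to 4886 (nucleus), and no member's call changed. Leaving out 1 replicate gave 314 to 930 and 1878 to 5975 genes for these share contrasts, the latter with 2398 without replicate 3 and 1878 without replicate 4. It gave 344 to 4143 for whole cells at 20 min between pairs (3755 with all). For 120 versus 20 min in whole cells (19 genes), DESeq2 gave 118, no filter on low counts 227, the replicate block 31 and each left-out replicate 0. With no filter, 120 versus 60 min and 60 versus 20 min gave 49 and 42 genes in place of 0. The causes were not tested. Scaling by library total shifted the median of all genes from -0.01 to 0.35 in nucleus versus cytosol, and the genes called higher and lower from 4635 and 2799 to 5996 and 1096; in membrane versus cytosol they went from 3678 and 119 to 3299 and 790. The fit of shares without whole-cell libraries was chosen after seeing the data. Cytosolic Dhcr7 conversions (6 to 41 at 20 min) limit its shares.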
